A study of Rattus norvegicus with 6 samples.

Results

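Molecular chaperones keep other proteins folded. The cytosolic HSP70 and HSP90 families bind client proteins in cycles of ATP hydrolysis, J-domain proteins (DNAJ) deliver clients to HSP70 and stimulate its ATPase, and nucleotide exchange factors such as the BAG proteins release them. The ring-shaped CCT chaperonin and its partner prefoldin fold actin and tubulin, the FK506-binding proteins (FKBP) are prolyl isomerases of which some dock on HSP90, and the endoplasmic reticulum and mitochondria hold their own HSP70, HSP90 and HSP60 machinery. The heat shock factor HSF1 switches on many cytosolic members under stress, and the unfolded protein response does so for those of the endoplasmic reticulum. In the brain, several J-domain proteins serve synaptic vesicles and clathrin coats.

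The genes described here were the loci of the study's assembled rat transcriptome whose reference gene name belongs to the HSP, DNAJ, CCT, BAG, HSF, prefoldin, FKBP, PDIA or AHSA families, or is Tcp1, Stip1 or St13. The rule found 68 loci of 24746 in the annotation, of which 8336 carry a reference gene name at all. RefSeq lists 130 protein-coding rat genes with such symbols, and 66 of them were named in the annotation. The others, which include Hspa8, Hspa9, Hsph1 and Dnajb1, are not analysed here. By location, 43 of the loci encode cytosolic proteins, 5 nuclear, 3 mitochondrial and 16 proteins of the endoplasmic reticulum. Dnajc22, a J-domain membrane protein, was kept apart from these compartments.

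RNA came from the whole brains of naïve male rats, 3 of each of 2 inbred strains, with no age given in the labels. BN-Lx/CubPrin (BNLx) is a congenic Brown Norway line that carries the polydactyly-luxate syndrome, and SHR/OlaIpcvPrin (SHR) is the spontaneously hypertensive rat. The labels name no treatment, so that levels are those of unstressed brain as far as the labels go. The question was which genes and isoforms differ between the strains, where isoforms include alternative 3′ ends that the program aptardi added to the assembled transcripts. Because whole brain was sequenced, fewer cells of a type and less RNA per cell cannot be told apart.

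Library totals ran from 1.17e+07 to 4.13e+07 expected counts. In each strain 1 library differed from the other 2, BNLx replicate 3 and SHR replicate 1: the 4 within-strain pairs that hold one of them had a chi-square per degree of freedom of 69.1 to 114 over all genes, and the 2 pairs without them had 9.72 (BNLx) and 8.38 (SHR). Counts of members are therefore also given without those 2 libraries, a choice made after seeing the data. The markers of neurons, astrocytes, oligodendrocytes and microglia that name a locus and are used here were all present. The summed level of 2 oligodendrocyte markers (Mog and Mobp) was 1182, 848 and 1958 TPM (abundance scaled to transcript length and library depth) in BNLx replicates 1 to 3 and 763, 657 and 449 TPM in SHR, higher in every BNLx library. The sum of 2 astrocyte markers (Slc1a3 and Gja1) separated the strains the other way, at 460, 461 and 502 TPM in BNLx and 605, 638 and 602 TPM in SHR. Within these sums Mobp and Slc1a3 separated the strains, whereas Mog and Gja1 each overlapped. Gja1 was at 157, 171 and 247 TPM in BNLx and 214, 211 and 219 TPM in SHR. The 1 endothelial marker was at 16.9 to 18.4 TPM in BNLx and 15.1 to 16.2 TPM in SHR, whereas the sums of 3 neuron and of 3 microglia markers overlapped between the strains. The part of these markers in the differences below was not tested. The 5 red blood cell markers, and likewise those of choroid plexus and pituitary, named no locus and could not be checked.

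Around the starts of 4 of the genes lie letters of the elements through which the heat shock and unfolded protein responses are known to act, shown here because both responses bear on the members. Promoters of 250 bases before to 50 bases after each start were taken from RefSeq (GRCr8); 52 matched a member's symbol and 17 members had none. The heat shock element was searched on both strands as 3 alternating GAA units (GAANNTTCNNGAA; its reverse complement, TTCNNGAANNTTC, is the same search). It was found in 0.798% of 33469 promoters and, among the members, in those of Dnaja1 and Hspd1. The endoplasmic reticulum stress response element (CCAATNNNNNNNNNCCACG, both strands) was found in 0.0657% of all promoters, and among the members in those of Hspa5 and Hsp90b1, the latter with 2 copies. The lines below give each match with 5 bases on either side, 5′ to 3′, with the element in capitals; the first copy of Hsp90b1 is read on the strand opposite to the gene, the rest on the gene's strand, and in Hspd1 a second match overlaps the one shown.
Dnaja1, chr5:60638408-60638430, plus strand: gggcgGAACTTTCCAGAAcgctc
Hspd1, chr9:64084257-64084279, minus strand: ttccgGAAGGTTCTAGAAccgag
Hspa5, chr3:38452968-38452996, plus strand: gttcaCCAATCGGAGGCCTCCACGacggg
Hsp90b1, chr7:23012342-23012370, plus strand: acccaCCAATCGTGCCTCACCACGcactc
Hsp90b1, chr7:23012446-23012474, minus strand: caaacCCAATCGAAAGGAGCCACGcttcg
A match is a run of letters, not a binding site. No library of this study measured binding.

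The members spanned a wide range of levels, with cytosolic HSP90 near the top. Levels of different genes are compared in TPM. By the mean over the 6 libraries, 3 loci exceeded 1000 TPM, 30 exceeded 100 TPM and 11 lay under 10 TPM. The highest mean, 1400 TPM, was that of a locus named for Fkbp11 together with 3 other genes, which is dealt with below and left out of sums. Hsp90ab1, the constitutive cytosolic HSP90, had the next mean level and was at 1311, 1386 and 1373 TPM in BNLx and 1386, 1362 and 1397 TPM in SHR. Hsp90aa1, the inducible form, followed at 1015, 1119 and 1436 TPM in BNLx and 1008, 1146 and 1188 TPM in SHR, with overlapping strains.

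Stress-inducible HSP70 was scarce. Hspa1b was at 2.56, 3.99 and 4.75 TPM in BNLx and 1.48, 1.2 and 3.11 TPM in SHR, from 25.7 to 97.0 counts a library. No locus carries the name of its near-identical copy Hspa1a, so how reads of the pair were divided is uncertain. Of the 4 members with an Hspb name, the prefix of the small HSPs, Hspb2, Hspb3 and Hspb7 were also low. They stayed below the filter for testing, which was 50 counts or more in at least 2 libraries of the same strain. Cct8l1, Dnajb3, Dnajb7 and Dnajc22 stayed below it too, and none of these 7 genes exceeded 102 counts in a library. Hspb11, grouped here by its name alone, was tested, at 17.3 to 24.4 TPM in BNLx and 18.3 to 27.5 TPM in SHR. Small HSPs such as Hspb1, Hspb6 and Hspb8 named no locus and could not be checked.

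Summed over all members but the Fkbp11 locus, the level was 8573, 8799 and 9127 TPM in BNLx and 9024, 8601 and 8761 TPM in SHR. The strains overlap in this sum, which was between 0.857% and 0.913% of all TPM. Cytosolic members made up 6458 to 6725 TPM in BNLx and 6544 to 6807 TPM in SHR. Members of the endoplasmic reticulum summed to 1299, 1334 and 1552 TPM in BNLx and to 1359, 1326 and 1302 TPM in SHR. Nuclear members gave 502, 488 and 462 TPM in BNLx and 511, 422 and 432 TPM in SHR, and the 3 mitochondrial ones 313, 326 and 387 TPM against 346, 309 and 319 TPM, again with overlapping strains.

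**Figure D1:**
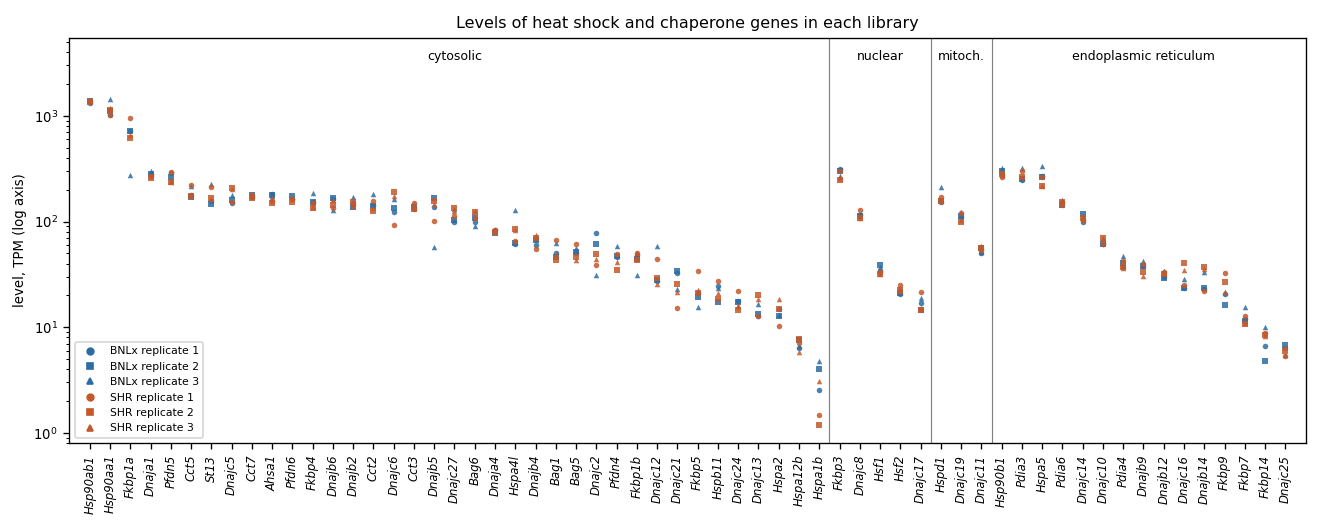
Level of each tested member in each library, in TPM on a log axis, grouped by compartment and sorted by mean; the Fkbp11 locus is left out. Blue symbols are the 3 BNLx libraries and orange symbols the 3 SHR libraries; Hsp90ab1 and Hsp90aa1 lie near or above 1000 TPM, and Hspa1b is the lowest.

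No heat shock or chaperone gene total passed the test between the strains. Of the 61 loci tested, 0 had an adjusted p of 0.05 or less with edgeR's quasi-likelihood test, against 1.02% of the 14471 genes tested. DESeq2 also called 0 members, against 3.76% of all genes. At an unadjusted p under 0.05 edgeR gave 3 members, against 10.2% of all genes: Hspa5, Fkbp4 and Dnajc21, each lower in SHR. Fold changes below are SHR over BNLx on the log2 scale, with the standard error (SE) and 3 libraries a strain, and values per library are CPM, the counts divided by the TMM-scaled library size.

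The log2 fold changes of the endoplasmic reticulum chaperones ran from -0.38 to 0.53, with 10 negative and 6 positive. Hspa5 had the largest negative estimate among them, and the Fkbp11 locus, dealt with below, the largest positive one. Hspa5 (BiP), the HSP70 of the endoplasmic reticulum and a sensor partner in the unfolded protein response, (rn6 chromosome 3, 13838304 to 13842762) was at 333.5, 314.3 and 366.4 CPM in BNLx and 304.7, 232.4 and 239.4 CPM in SHR. Every BNLx library lay above every SHR library, SHR replicate 1 being the nearest to BNLx. The log2 fold change was -0.38 (SE 0.15), with an adjusted p of 0.46 from edgeR and 0.22 from DESeq2.

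Hsp90b1 (GRP94), the HSP90 of the same compartment, was at 363.6, 382.7 and 380.1 CPM in BNLx and 334.8, 324.7 and 329.1 CPM in SHR. These groups did not overlap either, and the log2 fold change was -0.19 (SE 0.10, edgeR adjusted p = 0.62). Pdia6, a protein disulfide isomerase that acts with BiP, was at 125.3, 114.5 and 117.0 CPM in BNLx and 112.4, 107.7 and 111.6 CPM in SHR (log2 -0.10, SE 0.10, edgeR adjusted p = 0.77). It was the third of 16 members of this compartment whose BNLx libraries all lay higher in CPM, by a small margin, against 8.49% of all genes. In TPM, Hsp90b1 and Pdia6 overlapped between the strains.

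Pdia3 (ERp57), which folds glycoproteins with calnexin, was at 217.6, 213.0 and 249.8 CPM in BNLx and 246.5, 199.4 and 207.0 CPM in SHR. Pdia4 (ERp72) was at 43.5, 46.3 and 49.0 CPM in BNLx and 48.9, 39.7 and 39.2 CPM in SHR. In both genes SHR replicate 1 was among the BNLx values, and the log2 fold changes were -0.06 (SE 0.14, edgeR adjusted p = 0.92) and -0.12 (SE 0.13, edgeR adjusted p = 0.81).

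Among J-domain proteins of the endoplasmic reticulum, Dnajb9, a BiP partner induced by the unfolded protein response, was at 35.2, 33.8 and 34.3 CPM in BNLx and 34.8, 26.5 and 25.3 CPM in SHR. Dnajc16 was at 53.2, 51.6 and 55.3 CPM in BNLx and 51.1, 77.3 and 71.1 CPM in SHR, and Dnajb14 at 99.8, 99.3 and 131.9 CPM against 92.1, 141.1 and 138.1 CPM. In each of the 3 genes SHR replicate 1 sat on the BNLx side, away from the other SHR libraries. Exons of Agmat on the opposite strand cover 52.6% of the exonic bases of Dnajc16, and the libraries do not keep strand, so its reads cannot be told apart from those of Agmat there.

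Cytosolic HSP90 did not differ detectably as a gene total. Hsp90ab1 was at 1547, 1573 and 1428 CPM in BNLx and 1550, 1376 and 1465 CPM in SHR (log2 -0.05, SE 0.13, edgeR adjusted p = 0.93); limma on TPM put it at 0.027, the other sign. The Hsp90aa1 locus total was 1355, 1435 and 1630 CPM in BNLx and 1176, 1189 and 1278 CPM in SHR (log2 -0.28, SE 0.14, edgeR adjusted p = 0.58). All 3 BNLx libraries were above all SHR libraries in the latter, which also counts reads of a second named gene described below.

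Among the HSP90 co-chaperones, Ahsa1, which activates the HSP90 ATPase, was at 114.0, 109.0 and 96.9 CPM in BNLx and 93.0, 82.1 and 95.2 CPM in SHR. Its groups did not overlap, but exons of an unnamed locus on the opposite strand cover 41.2% of its exonic bases. Fkbp4 (FKBP52), the HSP90-bound isomerase of steroid receptor complexes, was at 164.1, 159.8 and 177.8 CPM in BNLx and 150.7, 124.7 and 132.4 CPM in SHR (log2 -0.30, SE 0.12, edgeR adjusted p = 0.46). Its antagonist in those complexes, Fkbp5 (FKBP51), an inducible target of glucocorticoids, was at 35.7, 30.95 and 23.4 CPM in BNLx and 54.7, 31.5 and 34.2 CPM in SHR (log2 0.42, SE 0.26, edgeR adjusted p = 0.67). Fkbp4 was higher in every BNLx library, whereas the groups of Fkbp5 overlapped and its log2 fold change was -0.032 without SHR replicate 1 and BNLx replicate 3.

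The HSP70 family of the cytosol held the largest estimated fold change, in its scarcest member. Hspa1b was at 3.005, 4.53 and 5.004 CPM in BNLx and 1.65, 1.23 and 3.25 CPM in SHR (log2 -1.03, SE 0.43, edgeR adjusted p = 0.50). SHR replicate 3 was within the BNLx range. Hspa4l, an HSP110 relative that acts as an exchange factor, was at 115.3, 117.3 and 213.2 CPM in BNLx and 115.6, 130.4 and 129.7 CPM in SHR, BNLx replicate 3 alone standing apart.

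J-domain proteins of the cytosol went both ways: 8 of 14 had a negative and 6 a positive log2 fold change. Dnajc21, which takes part in ribosome maturation, was at 28.7, 28.8 and 18.3 CPM in BNLx and 12.6, 19.5 and 17.3 CPM in SHR (log2 -0.62, SE 0.25, edgeR adjusted p = 0.47). BNLx replicate 3 lay among the SHR values. Dnaja1, a general HSP70 co-chaperone, was at 226.6, 221.1 and 211.6 CPM in BNLx and 203.6, 171.9 and 187.1 CPM in SHR (log2 -0.23, SE 0.11, edgeR adjusted p = 0.57), without overlap.

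The J-domain proteins of vesicle traffic were abundant. Dnajc5, the cysteine string protein of synaptic vesicles, was at 333.4, 350.0 and 339.9 CPM in BNLx and 330.6, 391.4 and 397.8 CPM in SHR. Dnajc6 (auxilin), which uncoats clathrin vesicles in neurons, was at 318.8, 333.7 and 375.8 CPM in BNLx and 227.1, 429.2 and 408.9 CPM in SHR. Their groups overlapped only through SHR replicate 1, which was the lowest library for both genes.

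All 7 tested members of the CCT chaperonin and prefoldin had a negative log2 fold change, with a median of -0.15 and a range of -0.36 to -0.06, and in none did the strains separate. On the TPM scale 5 of the 7 were negative. Cct5, an example near the top of the group in level, was at 148.5, 135.7 and 157.6 CPM in BNLx and 171.9, 123.1 and 127.6 CPM in SHR. Cct2 was at 127.9, 121.8 and 142.7 CPM in BNLx and 130.0, 95.1 and 104.1 CPM in SHR. In both, SHR replicates 2 and 3 were below all BNLx libraries and SHR replicate 1 was not.

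Fkbp1a (FKBP12), the main cytosolic target of the drug FK506, was the most abundant isomerase outside the Fkbp11 locus. It was at 504.1, 480.1 and 169.6 CPM in BNLx and 624.0, 369.8 and 407.4 CPM in SHR (log2 0.28, SE 0.44, edgeR adjusted p = 0.88). BNLx replicate 3 was the lowest and SHR replicate 1 the highest of the 6 libraries, and without these 2 the log2 fold change was -0.34 (adjusted p = 0.022), the opposite sign.

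In the nucleus, the FK506-binding protein Fkbp3 (FKBP25) was at 125.1, 114.9 and 94.4 CPM in BNLx and 111.3, 82.6 and 89.7 CPM in SHR (log2 -0.24, SE 0.17, edgeR adjusted p = 0.71). Hsf1, the master factor of the heat shock response, was at 43.9, 47.1 and 42.7 CPM in BNLx and 43.7, 38.0 and 39.1 CPM in SHR (log2 -0.14, SE 0.11, edgeR adjusted p = 0.72). Dnajc8, a J-domain protein of the spliceosome, was at 72.5, 69.2 and 64.0 CPM in BNLx and 76.6, 57.5 and 59.1 CPM in SHR (log2 -0.09, SE 0.14, edgeR adjusted p = 0.88). The strains overlapped in each of these genes, in each case through SHR replicate 1.

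The 3 mitochondrial members tested had small estimates. Hspd1 (HSP60), the chaperonin of the matrix, was at 163.5, 161.5 and 204.5 CPM in BNLx and 172.5, 144.7 and 151.1 CPM in SHR (log2 -0.18, SE 0.14, edgeR adjusted p = 0.75). Dnajc19, a subunit of the import motor, was at 26.8, 26.3 and 25.2 CPM in BNLx and 27.8, 21.6 and 23.0 CPM in SHR (log2 -0.11, SE 0.13, edgeR adjusted p = 0.84). Dnajc11, which associates with the complexes that shape cristae, was at 59.3, 59.5 and 54.7 CPM in BNLx and 57.5, 57.6 and 61.9 CPM in SHR (log2 0.03, SE 0.09, edgeR adjusted p = 0.95). All 3 overlapped between the strains.

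**Figure D2:**
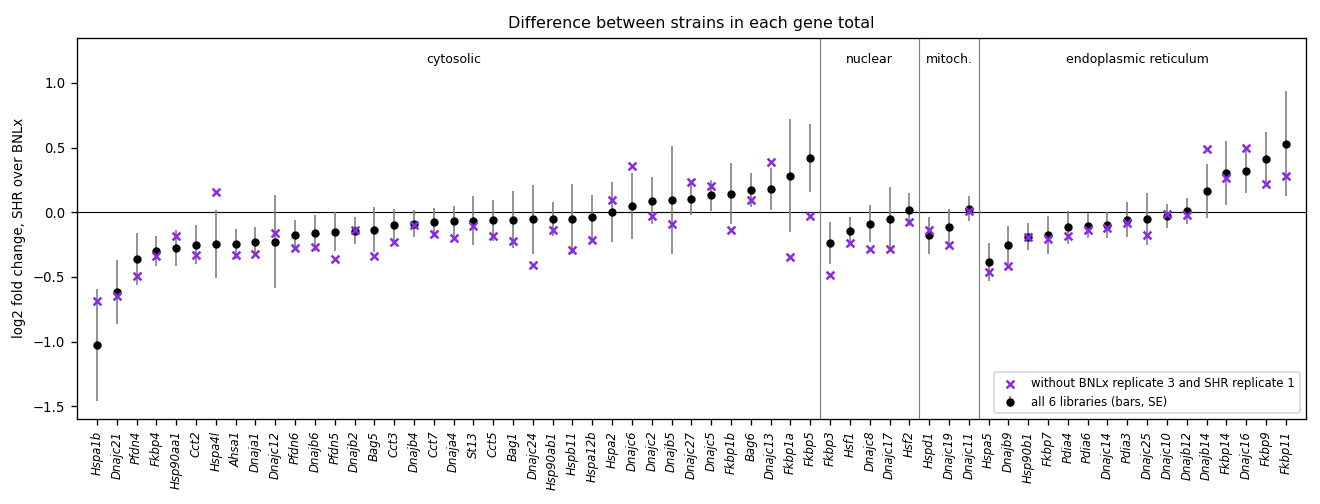
Log2 fold change of each tested member, SHR over BNLx, grouped by compartment. Black points with bars are estimates from all 6 libraries with their SE; crosses are estimates without BNLx replicate 3 and SHR replicate 1, which differ most for Hspa4l, Fkbp1a and Fkbp5.

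Taken by counts, the estimates leaned to lower values in SHR, though not in every family. Of the 9 FK506-binding members, the Fkbp11 locus among them, 6 had a positive log2 fold change (median 0.28). Without BNLx replicate 3 and SHR replicate 1, 3 of the 9 were positive (median -0.14). The log2 fold change was negative for 42 of the 61 tested members and positive for 19, with a median of -0.07, against 49.9% negative and a median of 0.00038 over all genes tested. With limma on TPM, 31 of 61 were negative against 37.4% of all genes, with medians of -0.0004 and 0.074, so the split between signs depended on the scale while the members' median minus that of all genes was -0.072 (counts) or -0.075 (TPM). Every BNLx library lay above every SHR library in 7 members (11.5%), against 8.49% of all genes: Hsp90aa1, Dnaja1, Ahsa1, Fkbp4, Hsp90b1, Hspa5 and Pdia6. The reverse held in 0 members, against 8.97% of all genes. Those counts are on CPM. In TPM every BNLx library was above in 5 members, against 5.76% of all genes (Hspa5, Dnaja1, Ahsa1, Fkbp4 and Hsf1, with Hsp90aa1, Hsp90b1 and Pdia6 overlapping), and every SHR library in 3, against 11.9% (Fkbp5, Fkbp9 and Bag6). Members of the same pathway are not independent of each other, and this share is a description of the members.

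Leaving out the 2 libraries that stood apart changed the count. With 2 libraries left in each strain, edgeR called 14 members lower in SHR (23.0%, against 15.0% of all genes) and 6 higher (9.84%, against 16.5%). The lower ones were Dnajc21, Fkbp3, Hspa5, Dnajb9, Pfdn5, Fkbp1a, Bag5, Fkbp4, Ahsa1, Cct2, Dnaja1, Dnajc8, Pfdn6 and Cct3. The higher ones were Dnajc27, the Fkbp11 locus, Dnajc6, Dnajc13, Dnajb14 and Dnajc16. The largest of these changes were -0.65 for Dnajc21, -0.48 for Fkbp3 and -0.46 for Hspa5 on the one side, and 0.50 for Dnajc16 and 0.49 for Dnajb14 on the other. Of the 20, 19 had the same sign with all 6 libraries, the exception being Fkbp1a. These 20 rest on libraries chosen after their values were seen.

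Each of the 2 libraries departed from its strain in several members, of which Dnajc12 and Fkbp1a were common to both. In BNLx replicate 3, 7 of 61 members (11.5%) differed by more than 1.5-fold from the mean of the other 2 BNLx libraries, against 26.0% of all genes: Dnajb5, Dnajc12, Dnajc21, Fkbp11, Fkbp1a, Fkbp1b and Hspa4l. In SHR replicate 1 they were 6 (9.84%, against 23.3% of all genes): Bag1, Dnajb14, Dnajc12, Dnajc6, Fkbp1a and Fkbp5. Dnajb5, for example, a J-domain protein of the cytosol and nucleus, was at 180.9, 213.4 and 68.7 CPM in BNLx and 124.3, 189.5 and 180.5 CPM in SHR, so its lowest value was in BNLx replicate 3. Of the cell type markers, the neuron sum was the lowest of its strain in both. It was at 2997 TPM in BNLx replicate 3 against 3810 and 4752 TPM in the other BNLx libraries. In SHR replicate 1 it was at 2195 TPM against 3557 and 3528 TPM in the other SHR libraries. Snap25 and Syt1 had that order, but Stmn2 did not. Stmn2 was highest of BNLx in replicate 3, at 442 TPM, and at 466, 428 and 468 TPM in SHR replicates 1 to 3. The oligodendrocyte sum was the highest of its strain in both. The summed level of 5 immediate early genes was lowest in BNLx replicate 3, at 91.1 TPM against 254 and 413 TPM in the other BNLx libraries and 221 to 452 TPM in SHR. The part of these in the departures was not tested.

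**Figure D3:**
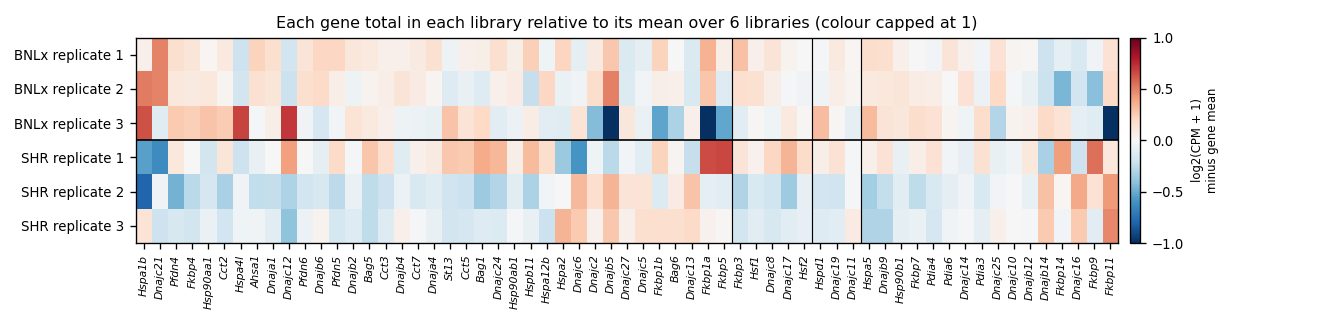
Each tested member in each library as log2(CPM + 1) minus the gene's mean over the 6 libraries, red above and blue below, with colour capped at 1. Rows are libraries and columns are genes in the order of the fold change plot; the darkest cells are in BNLx replicate 3 (Fkbp1a, Dnajb5 and the Fkbp11 locus).

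A few isoforms were called although no gene total was. The members had 233 isoforms in the annotation, 166 from the assembly and 67 with a 3′ end added by aptardi in 30 of the genes. The added ends were 31 shorter and 36 longer than the assembled one, by 103 to 7378 bases with a median of 263. In 15 members more than 50% of the counts sat on the added ends. Of 136 member isoforms tested, 3 had a p of 0.001 or less with edgeR, the threshold used for isoforms here, against 1.00% of the 32348 isoforms tested. They lay in 2 loci, Hsp90aa1 and Fkbp11. DESeq2 gave 5, against 3.63% of all isoforms, adding 1 isoform each of Fkbp3 and Hsf1.

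Hsp90aa1 had 2 3′ ends, and the shorter was counted in SHR alone. The transcript with the assembled end (STRG.25865.1; rn6 chromosome 6, 135107271 to 135112775, minus strand, 11 exons) was at 1263, 1316 and 1214 CPM in BNLx and 698, 453 and 536 CPM in SHR. The isoform that ends 426 bases earlier (STRG.25865.1.1) was at 0 in all 3 BNLx libraries and at 159, 340 and 380 CPM in SHR. Both separated the strains completely, in opposite directions, and SHR replicate 1 was closest to BNLx in both.

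The assembled end had a log2 fold change of -1.17 (SE 0.19, edgeR adjusted p = 0.092), past the threshold of 0.001 before adjustment; it fell short of that threshold on leaving out any single library except SHR replicate 1, at log2 fold changes of -1.20 to -1.03, and also with library size alone, with no filter or with 10 counts in 3 libraries (-1.16 to -1.14). Taking 3 counts a library as the limit for the BNLx libraries, the shorter one was at least 1482-fold higher in SHR (edgeR adjusted p = 0.032). That limit covers counting error alone, and how RSEM divided reads shared by the 2 ends was not tested. Such shares can move within a strain: the added end of Bag5 took 0%, 0.005% and 42.7% in BNLx and 21.0%, 0.003% and 51.0% in SHR. The shorter end of Hsp90aa1 made up 18.6%, 42.8% and 41.5% of the 2 isoforms' counts in SHR replicates 1 to 3. Their sum was 1263, 1316 and 1214 CPM in BNLx and 856, 793 and 916 CPM in SHR, lower in every SHR library. Whether this sum passed the isoform threshold depended on the tool: DESeq2 put it past, and edgeR did not. Fitted as a single transcript, that sum had a log2 fold change of -0.56 (SE 0.12, edgeR adjusted p = 0.17), short of the threshold.

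The Hsp90aa1 locus also holds a second gene, named LOC103692716 in the annotation and absent under that name from the RefSeq table used here. It starts 62477 bases away, and 9 of the 11 exons of its longer transcript have the same length as those of Hsp90aa1. Its transcripts summed to 123, 117 and 457 CPM in BNLx and 350, 401 and 365 CPM in SHR. The shorter of them was at 0 in BNLx replicates 1 and 2, at 301 CPM in BNLx replicate 3 and at 239 to 257 CPM in SHR. The sequences of the pair were not compared here, and whether RSEM divided reads between them was not tested. The values of single Hsp90aa1 isoforms would depend on such a division, and the locus total would not.

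In the Fkbp11 locus the shares of a pair of transcripts differed between the strains. The locus (rn6 chromosome 7, minus strand) carries the names Fkbp11, Ddn, Wnt10b and Kmt2d, and 55.4% of its counts were assigned to Fkbp11. Nearly all of those were on a pair of transcripts at 140412469 to 140417530, 10783 bases from the compact Fkbp11 transcript. One of the pair carries the Fkbp11 name, but RefSeq lists Arf3 as the next gene and no locus of the annotation is named Arf3, so that the pair belongs to Fkbp11 is doubtful. The pair differ in 45 bases of the last exon, 140414461 to 140414505, which one leaves out.

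The transcript without these 45 bases (STRG.29674.4) was at 9.19, 4.35 and 6.71 CPM in BNLx and 801, 795 and 822 CPM in SHR. The one that keeps them (STRG.29674.6) was at 1259, 1292 and 490 CPM in BNLx and 475, 530 and 509 CPM in SHR. The first was far higher in every SHR library (log2 6.89, SE 0.35, edgeR adjusted p = 0.0088). It was 0.726%, 0.337% and 1.36% of the pair for BNLx and 62.8%, 60.0% and 61.8% for SHR. The sum of the pair was 1268, 1296 and 497 CPM in BNLx and 1277, 1325 and 1331 CPM in SHR, apart from BNLx replicate 3 within a narrow range. The remaining Fkbp11 transcripts, those of the secretory-pathway isomerase itself, summed to 32.6, 28.6 and 20.4 CPM in BNLx and 32.1, 48.5 and 46.6 CPM in SHR, with SHR replicate 1 inside the BNLx range.

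**Figure D4:**
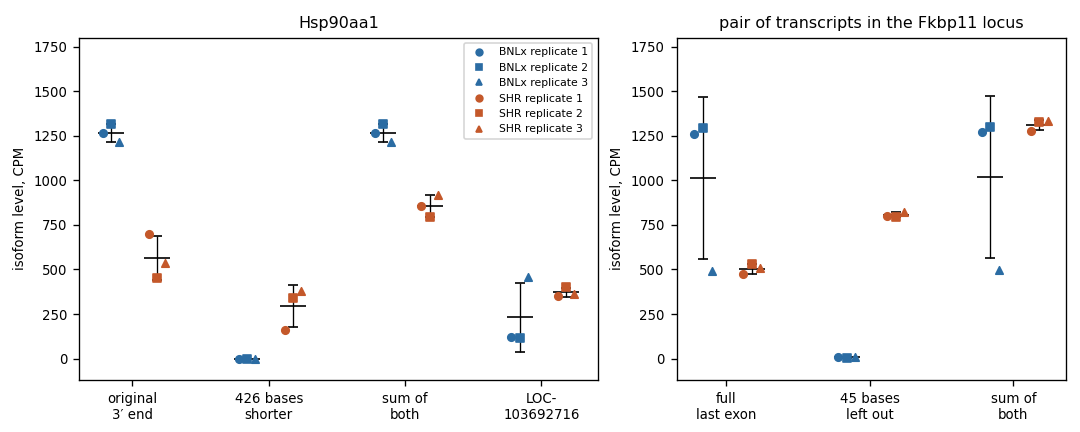
Isoform levels in CPM in each library for Hsp90aa1 with LOC103692716 (left) and for the pair of transcripts in the Fkbp11 locus (right). Bars mark the mean and SD of the 3 libraries of a strain; the shorter 3′ end of Hsp90aa1 is at 0 in BNLx, and the form without 45 bases lies between 795 and 822 CPM in SHR and between 4.35 and 9.19 CPM in BNLx.

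Isoform usage, the share of a locus's reads that each isoform takes, was tested in 41 member loci. The test is per locus, so for Hsp90aa1 it takes in the transcripts of LOC103692716. For the Fkbp11 locus it takes in those of the other named genes there. edgeR called 2 at an adjusted p of 0.05 or less, Hsp90aa1 (adjusted p = 0.023) and Fkbp3 (adjusted p = 0.048), against 4.37% of the 7742 loci tested. On voom weights, limma called 3, against 2.22% of all loci: the Fkbp11 locus (adjusted p = 0.0046), Hsp90aa1 (0.011) and Hsf1 (0.012), whereas Fkbp3 had an adjusted p of 0.42. The Hsp90aa1 call was lost on leaving out BNLx replicate 2 (adjusted p = 0.054), SHR replicate 2 (0.12) or SHR replicate 3 (0.13), and the Fkbp3 call on leaving out any single library but SHR replicate 2 (adjusted p of 0.052 to 0.18). Without the 2 libraries that stood apart edgeR called 15, against 28.3% of all loci.

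Fkbp3, called for usage by edgeR, differed in a minor 3′ end. Its reads lay nearly all on 2 added ends, 263 and 163 bases short of the assembled one. The longer of these was at 7.95, 17.8 and 8.37 CPM in BNLx and at 0, 0.619 and 0 CPM in SHR (log2 -5.84, SE 1.73, edgeR adjusted p = 0.38, DESeq2 adjusted p = 0.019). Its share of the locus was 6.22%, 15.5% and 8.65% for BNLx and 0%, 0.748% and 0% for SHR, so the strains did not overlap in a form that was minor in both. The 100 bases that set these ends apart lie wholly under exons of the opposite strand, at the locus of Prpf39, so that unstranded reads there cannot be given to 1 gene.

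Hsf1 showed several splice forms with a common added end 245 bases short of the assembled one. The form that carries the reference name was at 15.0, 18.4 and 13.0 CPM in BNLx and 8.86, 9.19 and 8.13 CPM in SHR (log2 -0.83, SE 0.21, edgeR adjusted p = 0.27, DESeq2 adjusted p = 0.016). Its share of the locus was 33.4%, 39.0% and 29.8% for BNLx and 19.7%, 24.1% and 20.7% for SHR. The largest unnamed form took 36.7%, 33.9% and 35.7% in BNLx and 46.4%, 41.3% and 48.7% in SHR. The strains separated in both shares, in opposite directions, and the usage test of the locus had an adjusted p of 0.073 with edgeR.

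Dnaja1 used 3 ends of its named transcript: the assembled one, one 114 bases shorter and one 486 bases longer. The share of the shorter was 35.7%, 32.3% and 37.9% for BNLx and 45.6%, 48.6% and 48.6% for SHR. The assembled end took 14.4%, 21.9% and 16.1% in BNLx and 12.5%, 12.7% and 10.99% in SHR. Both shares separated the strains, and the longer end did too, at 33.0% to 39.7% in BNLx and 23.6% to 31.3% in SHR. Shares within a locus depend on each other, here as for Hsf1 and Fkbp3. How often shares separate the strains over all loci was not counted. Over all Dnaja1 transcripts that use it, the longer end overlapped between the strains, at 38.5% to 45.2% in BNLx and 30.6% to 38.7% in SHR. None of these isoforms passed the threshold, the assembled end coming nearest with a log2 fold change of -0.77 (SE 0.21, edgeR adjusted p = 0.31), and the usage test had an adjusted p of 0.60.

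The isoforms of Hsp90ab1 varied within each strain. Most of its counts lay on 2 ends of a single transcript. The assembled one had a share of 32.6%, 30.3% and 49.3% for BNLx and 30.5%, 46.2% and 41.8% for SHR, and the one 172 bases longer had 56.8%, 62.2% and 38.1% for BNLx and 58.4%, 43.1% and 45.4% for SHR. A second transcript with an end of its own took 7.55% to 12.8% in every library. For the assembled end, BNLx replicate 3 and SHR replicates 2 and 3 were the high ones. Hspa5 had a single tested isoform, as had Pdia6 and Pdia3.

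**Figure D5:**
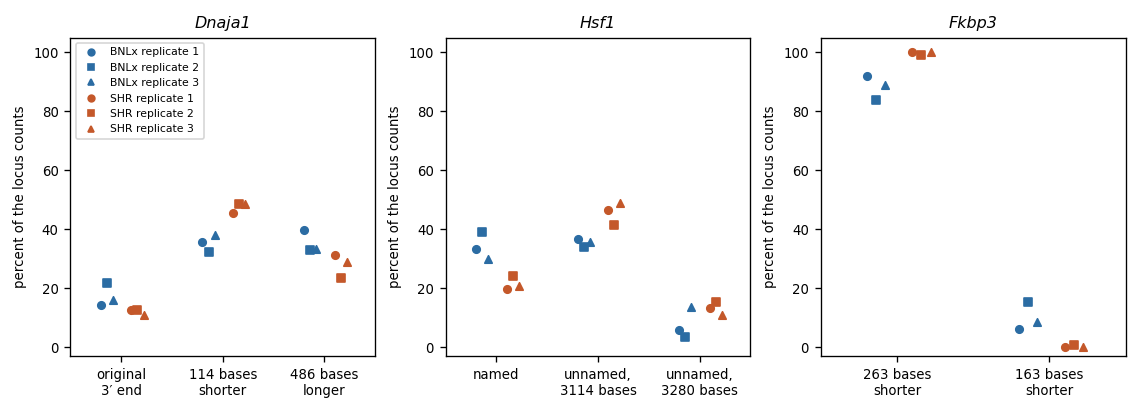
Share of the locus's counts taken by isoforms of Dnaja1, Hsf1 and Fkbp3 in each library, in percent; 3 of the tested isoforms are drawn for Dnaja1 and Hsf1. Blue BNLx and orange SHR points do not overlap for the shorter end of Dnaja1, for the named form of Hsf1 or for either end of Fkbp3.

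Summing each assembled transcript over its 3′ ends left 112 member transcripts tested. With edgeR 1 was past the threshold of 0.001, the form without 45 bases in the Fkbp11 locus, against 1.14% of all 28513 sums. DESeq2 also put the Hsp90aa1 sum and that of the named Hsf1 form past it.

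edgeR called none of the pathway genes listed beside the members. Of the cytosolic chaperone partners, 14 were tested and 10 had a negative log2 fold change (median -0.15). Of the mitochondrial chaperones and proteases 5 were tested (median -0.01), and of the genes of endoplasmic reticulum folding and the unfolded protein response 11 (median -0.11, 8 negative). The immediate early genes (5 tested, median 0.31) and the glucocorticoid responsive genes (5 tested, median -0.09) were added for activity and stress. The count of calls was 0 in each of these lists, with an unadjusted p under 0.05 for 2 genes of the first, Chordc1 and Cryab, and 2 of the unfolded protein response, Erp44 and Atf4. DESeq2 called 1, Atf4 (adjusted p = 7.6e-05), the transcription factor of the integrated stress response. Atf4 was at 314, 327 and 314 TPM in BNLx and 230, 248 and 226 TPM in SHR, without overlap (log2 -0.52, SE 0.11, edgeR adjusted p = 0.12).

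Some members' totals cover more than the named gene. Of the tested loci 15 carry several gene names, and in 8 of them the member's own transcripts held under 90% of the counts: Bag5 46.8%, Fkbp11 55.4%, Pfdn5 59.4%, Dnajc14 65.5%, Dnajc27 70.5%, St13 73.0%, Hsp90aa1 77.3% and Pdia4 85.1%. Exons of 18 members overlap a locus on the opposite strand, and in 4 of them (Dnajc16, Fkbp3, Ahsa1 and Dnajc19) the overlap exceeds 20% of the exonic bases.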

How the data were processed

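PolyA RNA libraries (unstranded TruSeq, paired reads of 100 bases) of 3 BNLx and 3 SHR brains were aligned with HISAT2 by the authors to strain genomes built from rn6, assembled together with StringTie 1.3.5 and extended with aptardi 1.0.0. The values used are the deposited RSEM expected counts per gene and isoform, and the deposited TPM, both made by the authors per library; the sequence version RSEM counted against is not given in the sources used here. Libraries shared 3 lanes, and which libraries shared which lane was not used.

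Expected counts were rounded. Genes and isoforms were kept if 2 libraries of either strain had 50 counts or more, which left 32348 isoforms, the same as in the deposited series table, and tested with edgeR 4.0.16 (R 4.3.3; TMM scaling, quasi-likelihood), as were isoform usage (diffSpliceDGE) and, as alternatives, DESeq2 1.42.0 and limma 3.58.1 (also on log2(TPM + 1) and log2(TPM + 0.1)). Genes and usage were called at a Benjamini-Hochberg adjusted p of 0.05 and isoforms at p of 0.001, over the whole table. CPM are on the TMM scale. The steps were tested on simulated data. Unnamed isoforms at loci of several names went to the gene with the largest exon overlap. Counting limits (3 counts a library for a value of 0) cover counting error only. Replicates are separate rats per the labels.

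Named genes were the called members, the 3 highest and the most changed (mean count of at least 100) of each compartment, and 19 canonical chaperones where named; other members were named after their values were seen. 1 marker of the lists is not reported here. The members and lists were chosen with earlier results of these data known. Same-numbered libraries correlated at -0.08, 0.36 and -0.26 in their deviations from the strain means. Those values include BNLx replicate 3 and SHR replicate 1, which stood apart and carry different numbers. They therefore cannot decide whether same-numbered libraries shared a batch.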

Additional observations from a re-analysis of the deposited data

How the results depend on the processing

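The number of gene totals called was 0 with edgeR's main settings, with DESeq2, RLE or plain library sizes, without a filter, with a filter of 10 counts in 3 libraries, with limma on TPM, and without loci of several names; leaving out libraries gave 0 to 20, the 20 being without BNLx replicate 3 and SHR replicate 1 together. The number of isoforms called was 3 with edgeR's main settings, 5 with DESeq2 and 4 with limma on log2(TPM + 1). It was 2 with plain library sizes, without a filter or with 10 counts in 3 libraries, where the assembled end of Hsp90aa1 fell short. With the 3′ ends of a transcript summed, edgeR called 1. On leaving out libraries the number was 2 to 6. For usage the number was 2, and 1 with 10 counts in 3 libraries and 0 to 15 on leaving out libraries; the usage call of Hsp90aa1 was lost without BNLx replicate 2 or SHR replicate 2 or 3, and that of Fkbp3 without any 1 library but SHR replicate 2.

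The replicates are separate rats per the labels, and the correlations of same-numbered libraries had no common sign. With the replicate number as a block, 0 gene totals, 1 isoform (that of the Fkbp11 locus) and 0 usage calls were left.

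Signs turned for estimates near 0, and also for Fkbp1a and Fkbp5, at 0.28 and 0.42 in the main fit. limma on TPM, with a pseudocount of 1 or of 0.1, gave 0.027 and 0.027 for Hsp90ab1, 0.029 and 0.030 for Pdia3, and 0.017 and 0.017 for the major end of Fkbp3. Leaving out libraries moved Dnajc11 from -0.011 to 0.048, Fkbp1a from -0.34 to 0.52, Fkbp5 from -0.032 to 0.57, Pdia3 from -0.16 to 0.014 and the major end of Fkbp3 from -0.31 to 0.058. For the 18 genes chosen as named genes above, other directions held in every setting. Other members with values in the text, such as Hspa4l and Dnajb5, were not followed through every setting. Without BNLx replicate 3 and SHR replicate 1, Hspa4l went from -0.25 to 0.16 and Dnajb5 from 0.094 to -0.091. The cause of these changes was not tested.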
